A study of Mus musculus with 24 samples.

Results

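The mitochondrial ribosomal protein genes are the nuclear genes whose names begin with Mrpl or Mrps followed by a number. They were taken from the deposited gene table as every protein-coding gene with such a name, which gave 78 of 56748 genes. RNA sequencing covered 12 mice, each of which gave 1 neural retina and 1 eye cup (RPE, choroid and sclera), so that there were 24 libraries in 8 groups of 3. PRDM13-OE mice were heterozygous at Rosa26 for a human PRDM13 transgene that dox induces, and their wildtype littermates served as controls. EF-1α, a ubiquitous promoter, drives the dox-responsive activator (rtTA), which in the presence of dox switches on TRE3G, upstream of a PRDM13 carrying a 3xHA tag. Both genotypes were on C57BL/6J. Treated mice drank 2 mg/mL dox with 10% sucrose for 72 hours, while untreated mice received no dox. Whether untreated mice had sucrose is not stated, so dox and sucrose cannot be told apart here. Dox also reached wildtype mice, which allowed its effect to be measured without the cassette.

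Mitochondria carry their own ribosome, which translates the few membrane proteins encoded by mitochondrial DNA. Its RNA is mitochondrial, but its proteins are encoded in the nucleus, made in the cytosol and imported. The large subunit holds the site of peptide bond formation and the small subunit the decoding site. Doxycycline is a tetracycline, a class of antibiotics that binds bacterial ribosomes and also inhibits the mitochondrial ribosome. Photoreceptors are densely packed with mitochondria, and so are the RPE cells that support them.

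Of the 78 genes, 51 encode large subunit proteins and 26 small subunit proteins. Mrps30 and Mrps18a are counted with the large subunit, where their proteins sit despite the names. Mrps36 was kept apart because its product is known as a component of the 2-oxoglutarate dehydrogenase complex rather than of the ribosome. By textbook assignment, 46 genes have a bacterial homologue and 31 are specific to mitochondria. The genes lie on 17 chromosomes, and chromosome 11 holds 11 of them. Of the 78, 50 share exon bases with another gene, on the same strand in 5 cases and on the opposite strand in 47, and it is not known whether the counting used strand. Mrps34, which encodes a mitochondria-specific small subunit protein, shared 47.8% of its exon bases with Nme3 on its own strand. Mrps6 shared 22.2% with Slc5a3 and Gm49711, so the counts of both genes are uncertain. On the opposite strand, Mrpl54 shared 94.4% of its exon bases, Mrps18c 78.2%, Mrps7 57.8% and Mrps25 47.9%. If strand was not used, the counts of these genes are uncertain too. The gene table places (GRCm39) Mrpl49 at chr19:6103652-6107815 (minus strand), Mrps10 at chr17:47679812-47692342 (plus strand), Mrps28 at chr3:8867206-8988978 (minus strand), Mrpl58 at chr11:115294578-115303500 (plus strand) and Mrps21 at chr3:95769946-95778831 (minus strand). It places 3 further genes with large tissue differences, Mrps6 at chr16:91855158-91909115 (plus strand), Mrpl33 at chr5:31754279-31821728 (plus strand) and Mrpl52 at chr14:54664366-54667213 (plus strand).

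The promoters of 69 of the 78 genes were present in the RefSeq table (GRCm38.p6), as 300 bases running from 250 before to 50 after the gene start. Those of Mrpl13, Mrpl15, Mrpl19, Mrpl38, Mrpl4, Mrpl54, Mrps28, Mrps34 and Mrps35 were not matched. Core letters of 3 factors known for housekeeping and mitochondrial genes were searched on both strands. The ETS core (CCGGAAG) was present in 26 of the 69 promoters (37.7%), against 9.93% of the 27025 genes in the table and 13.2% of its 16770 protein-coding genes. The YY1 core (AAGATGG) was present in 13 (18.8%), against 7.28% of all genes and 7.22% of protein-coding genes. The NRF1 core (GCGCATG) was present in 8 (11.6%), against 4.41% and 5.57%. At least 1 core was present in 38 promoters (55.1%), against 19.5% of all and 23.2% of protein-coding genes. These matches are a description of the letters and were not tested. The promoters of 5 genes are given 5′ to 3′ on the strand of the gene, with matched cores in capitals: that of Mrpl49, the gene called in both retinal comparisons with PRDM13-OE dox mice, and those of Mrpl33, Mrpl52, Mrpl58 and Mrps6, which were among the genes with the largest differences between tissues.
Mrpl49: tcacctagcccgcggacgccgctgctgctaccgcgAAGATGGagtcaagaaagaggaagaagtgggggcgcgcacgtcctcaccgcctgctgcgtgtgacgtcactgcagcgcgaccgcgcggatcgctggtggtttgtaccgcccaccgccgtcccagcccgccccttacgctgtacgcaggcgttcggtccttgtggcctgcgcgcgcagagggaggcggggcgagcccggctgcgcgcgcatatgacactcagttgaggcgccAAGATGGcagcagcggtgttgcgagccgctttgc
Mrpl33: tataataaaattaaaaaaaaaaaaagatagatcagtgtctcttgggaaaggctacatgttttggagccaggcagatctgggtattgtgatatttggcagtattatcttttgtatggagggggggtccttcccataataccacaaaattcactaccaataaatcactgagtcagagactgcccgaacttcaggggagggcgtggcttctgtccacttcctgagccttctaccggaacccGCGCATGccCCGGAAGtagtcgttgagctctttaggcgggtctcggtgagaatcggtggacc
Mrpl52: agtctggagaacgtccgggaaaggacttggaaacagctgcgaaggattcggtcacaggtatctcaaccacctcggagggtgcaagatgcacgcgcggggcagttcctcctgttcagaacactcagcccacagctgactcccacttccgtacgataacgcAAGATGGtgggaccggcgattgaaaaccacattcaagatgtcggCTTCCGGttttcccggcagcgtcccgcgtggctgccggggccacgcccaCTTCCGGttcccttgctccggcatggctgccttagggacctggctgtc
Mrpl58: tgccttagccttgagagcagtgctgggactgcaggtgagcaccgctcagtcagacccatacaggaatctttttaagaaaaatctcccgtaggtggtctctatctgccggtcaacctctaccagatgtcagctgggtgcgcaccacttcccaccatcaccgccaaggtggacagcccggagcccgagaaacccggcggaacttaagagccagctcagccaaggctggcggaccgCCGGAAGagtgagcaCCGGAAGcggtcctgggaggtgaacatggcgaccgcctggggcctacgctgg
Mrps6: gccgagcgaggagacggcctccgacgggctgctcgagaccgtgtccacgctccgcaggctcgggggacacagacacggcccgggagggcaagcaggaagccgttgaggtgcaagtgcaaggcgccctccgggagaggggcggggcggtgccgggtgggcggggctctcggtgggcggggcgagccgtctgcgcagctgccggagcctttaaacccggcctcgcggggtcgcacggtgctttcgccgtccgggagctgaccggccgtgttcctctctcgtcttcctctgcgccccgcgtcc
These windows are chr19:6057706-6058005 on the minus strand for Mrpl49, and on the plus strand chr5:31613701-31614000 for Mrpl33, chr14:54426659-54426958 for Mrpl52, chr11:115403502-115403801 for Mrpl58 and chr16:92058086-92058385 for Mrps6. The Mrpl33 window held an NRF1 core 12 bases and an ETS core 3 bases upstream of the gene start. In Mrpl58, ETS cores lay 17 and 2 bases upstream, and Mrpl52 held an ETS core on the minus strand 47 bases upstream and another 2 bases downstream, with a YY1 core 91 bases upstream. Mrpl49 held YY1 cores 215 bases upstream and 16 bases downstream, and Mrps6 held none of the 3 cores.

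Each library held between 15825059 and 24908314 counts on genes. The mitochondrial ribosomal protein genes took 0.19% to 0.227% of these in retinas and 0.2175% to 0.3054% in eye cups. Counts per library ran from 66 for Mrps18b to 3149 for Mrpl58, with the exception of Mrpl53. Levels are given as CPM, in which the counts of a tissue were put on one scale by TMM, and as deposited FPKM, which corrects for length, where genes are compared with each other. In untreated PRDM13-OE mouse 1, Gm13394, a pseudogene that marked the other PRDM13-OE libraries at 206 to 531 CPM, was at 4.84 CPM in the retina and 3.06 CPM in the eye cup, within the wildtype range of 2.11 to 7.61 CPM. The labels of this mouse were kept. For the mitochondrial ribosomal protein genes, comparisons that rest on untreated PRDM13-OE mice are also given without it, between untreated genotypes by the median alone. Values for gene classes, other gene lists and mitochondrial ribosomal RNAs are given only with it. Markers of the tissues were present in each group, but the eye cups varied in composition, with 14 rod markers summing to 3467 to 52100 CPM and 12 RPE and pigment markers to 8325 to 54545 CPM. In bulk RNA, fewer cells of a type and less RNA per cell cannot be told apart.

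Transcripts of 77 of the 78 genes were counted in every library of both tissues. Mrpl53 had 0 counts in all 24 libraries, where 3 counts would be the limit that a count of 0 allows in each. The gene table lists Mrpl53 (GRCm39 chr6:83086021-83086920, plus strand) inside Gm42688 (chr6:83078598-83086920), a protein-coding entry on the same strand that had 324 counts over the 24 libraries. This overlap is not among the same-strand overlaps counted above. Whether reads of Mrpl53 were lost to it was not tested.

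In the retina, the median level of the 77 genes was 9.08 FPKM and the range over genes was 0.959 to 66.7 FPKM. Mrpl34, the homologue of the small bacterial protein L34, was highest at 66.7 ± 5.19 FPKM (SD, n = 12). It was followed by the mitochondria-specific Mrpl49 (46.5 ± 5.10 FPKM) and Mrpl54 (39.1 ± 4.57 FPKM), then by Mrpl28 (37.4 ± 2.59 FPKM) and Mrps21 (32.3 ± 2.32 FPKM). Of the 5 highest, 4 belonged to the large subunit. The lowest were Mrpl33 (0.959 ± 0.0935 FPKM), Mrps9 (2.40 ± 0.248 FPKM), Mrps35 (2.41 ± 0.209 FPKM), Mrps30 (2.46 ± 0.319 FPKM) and Mrpl1 (2.57 ± 0.223 FPKM). The length listed for Mrpl33 was 7326 bases, and those of Mrps9, Mrps35, Mrps30 and Mrpl1 were between 4295 and 8631 bases, against 607 bases for Mrpl34. FPKM depends on these lengths.

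Genes whose proteins sit together in the ribosome had unequal FPKM values, which rest on the listed lengths. Counts per retina were closer for some of them. They were 596 to 773 for Mrpl12 (1532 bases) and 541 to 796 for Mrpl11 (3229 bases). For Mrpl2 (1170 bases) they were 625 to 837, and for Mrpl3 (6661 bases) 542 to 792. Mrps12 (1040 bases) held 360 to 489 counts and Mrps10 (8079 bases) 359 to 577, but Mrps7 (2072 bases) held 608 to 845. At the stalk of the large subunit, where translation factors bind, retinal Mrpl12 (21.6 FPKM) and Mrpl10 (21.0 FPKM) were close, while Mrpl11 was at 9.99 FPKM. In the core of the large subunit, Mrpl2 was at 31.7 FPKM, Mrpl4 at 12.0 FPKM and Mrpl3 at 5.14 FPKM. In the small subunit, Mrps12, a protein of the decoding centre, was at 21.0 FPKM, Mrps7 at 17.8 FPKM, Mrps14 at 9.45 FPKM, Mrps2 at 8.93 FPKM and Mrps10 at 2.77 FPKM. Mrpl45, which attaches the ribosome to the inner membrane, was at 12.1 FPKM, and Mrpl58, a release factor relative built into the large subunit, was at 10.0 FPKM. Mrps18a was at 5.80 FPKM and Mrps36 at 10.5 FPKM. The median of the 50 large subunit genes with counts was 10.1 FPKM and that of the 26 small subunit genes was 7.48 FPKM, while genes with a bacterial homologue (9.01 FPKM) and mitochondria-specific genes (9.34 FPKM) had close medians.

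Retinal levels varied little between libraries. The coefficient of variation over the 12 retinas had a median of 7.49% over the genes, from 2.76% for Mrps14 to 15.1%. The summed level was 1938, 2030 and 2010 CPM in untreated wildtype retinas, 2033, 2027 and 2007 CPM in wildtype with dox, 2004, 2072 and 2125 CPM in untreated PRDM13-OE, and 2180, 2121 and 2114 CPM in PRDM13-OE with dox. All 12 values were within 1.12-fold of each other. In the eye cups, the sums were 2650, 2749 and 3265 CPM in untreated wildtype, 2140, 2039 and 2297 CPM in wildtype with dox, 2558, 2580 and 3210 CPM in untreated PRDM13-OE, and 2350, 3003 and 2633 CPM in PRDM13-OE with dox. They spanned 1.60-fold, and the 3 wildtype eye cups with dox had the 3 lowest values. The small subunit share of the sum was 28.4% to 29.5% in retinas and 28.3% to 30.9% in eye cups.

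**Figure D1:**
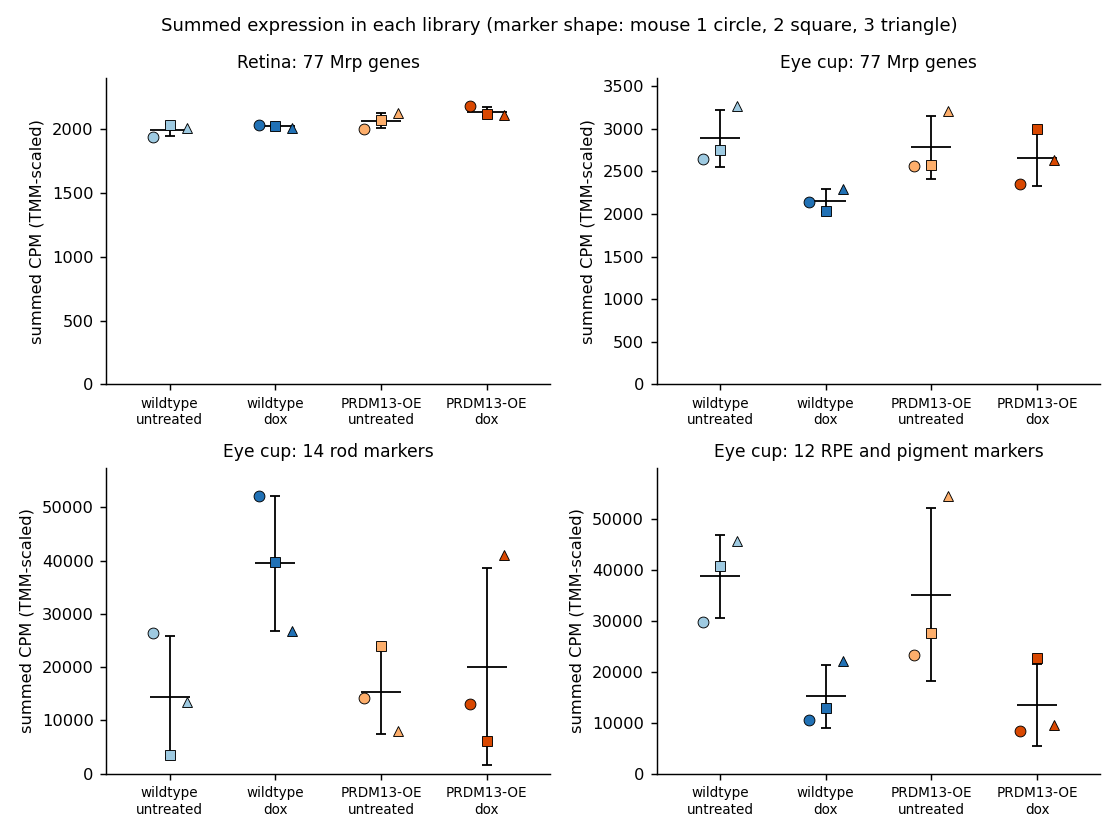
Summed CPM of the 77 counted Mrp genes in each retina and eye cup, and of rod markers and of RPE and pigment markers in the eye cups, by genotype and dox; points are libraries, horizontal lines are means and bars are SD (n = 3). The retinas lie between 1938 and 2180 CPM, while eye cups of dox-treated wildtype mice, at 2039 to 2297 CPM, are the 3 lowest of the 12 eye cups. Their rod markers are at 26736 to 52100 CPM and their RPE and pigment markers at 10550 to 22180 CPM. In PRDM13-OE eye cups with dox these are at 6088 to 40991 and 8325 to 22716 CPM.

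Whether dox alone altered these transcripts was addressed in wildtype mice. In the retina, none of the 77 genes was called with dox (edgeR, adjusted p under 0.05), beside 0.00485% of all 20631 genes tested, and 1 was higher and 0 lower at an unadjusted p under 0.05, beside 4.69% and 4.63% of all genes. DESeq2 also called 0. The median log2 fold change of the 77 genes was 0.01, beside -0.01 for all genes, and 43 of them were above 0, beside 48.3% of all genes. The estimates were narrow, since the 95% interval of the fold change stayed within 1.5-fold in either direction for 76 of the 77 genes. Mrps18c, a small subunit protein, was the exception, with a log2 fold change of -0.29 and an interval of -0.70 to 0.11.

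The 3 genes with the smallest adjusted p in this comparison were Mrps25, Mrpl1 and Mrpl20. Mrps25, a mitochondria-specific small subunit protein, was at 21.9, 22.9 and 21.2 CPM with dox and at 17.0, 19.0 and 18.8 CPM without, so the groups did not overlap, but its log2 fold change of 0.27 ± 0.08 (SE) did not pass (edgeR, adjusted p = 0.338). Mrpl1 (log2 -0.23 ± 0.12) and Mrpl20 (log2 0.13 ± 0.07) had adjusted p of 0.588 and 0.607 by edgeR. Groups did not overlap for 6 genes that were higher and 2 that were lower with dox, beside 6.44% and 7.92% of all genes. The wildtype retinas with dox from mice 1 and 2 also carried lens transcripts, at 11876 and 4858 CPM over 15 lens markers, against 4.89 to 927 CPM in the other retinas, and leaving out either library left 0 genes called. The sums of RPE and pigment markers (867 to 919 against 763 to 812 CPM) and fibroblast markers (20.8 to 35.6 against 12.8 to 20.3 CPM) were higher with dox without overlap. Each rested mostly on 1 gene, with highest gene means of 653.4 against 600.4 CPM and 20.1 against 13.5 CPM in these lists. The part of these markers was not tested.

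Retinas of PRDM13-OE mice with dox were compared with untreated PRDM13-OE retinas, a comparison that holds dox and induced PRDM13 together. Mrpl49 was the only one of the 77 genes called, as 1 of 77 beside 5% of all 20603 genes, and 2.04% when higher genes alone are counted. Mrpl49 was at 115, 107 and 111 CPM with dox and at 94.1, 97.0 and 82.4 CPM without. All 3 induced retinas were above all 3 untreated ones, and the difference was 21.5% (log2 0.28 ± 0.07 SE, edgeR adjusted p = 0.0378). The sums of 3 marker lists were lower in the same induced retinas without overlap, and their part in the result was not tested. The endothelial sum rested mostly on 1 gene, the highest gene mean being 99.2 CPM in induced and 214.3 CPM in untreated retinas. The 14 rod markers summed to 57964 to 64697 CPM against 77754 to 84592 CPM, the 5 red blood cell markers to 0.709 to 1.18 CPM against 28.3 to 64.5 CPM, and the 5 endothelial markers to 122 to 144 CPM against 239.8 to 291 CPM. Mrpl14, a conserved large subunit protein at the interface between subunits, was at 26.3, 28.5 and 27.3 CPM with dox and at 30.8, 33.5 and 37.2 CPM without, with a log2 fold change of -0.31 ± 0.09 that did not pass (edgeR adjusted p = 0.0682). The median over the 77 genes was 0.03 on the log2 scale, beside 0.00 for all genes, and every 95% interval stayed within 1.5-fold.

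Without untreated PRDM13-OE mouse 1, Mrpl49 remained called (log2 0.30, edgeR adjusted p = 0.0439) and Mrpl14 was called lower (log2 -0.37, adjusted p = 0.0266). The call of Mrpl49 was lost without untreated PRDM13-OE mouse 3 (adjusted p = 0.0887) and without each of the induced retinas in turn (adjusted p = 0.105 to 0.173 by edgeR), with log2 fold changes between 0.21 and 0.33 throughout.

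Induced PRDM13-OE retinas were also compared with wildtype retinas given dox, which removes dox from the comparison. The call was made for 3 of the 77 genes, all higher, beside 12.5% of all 20560 genes, or 5.01% when higher genes alone are counted. Mrpl49 was at 95.9, 95.5 and 86.0 CPM in the wildtype retinas, all below the 3 induced ones given above, a difference of 19.6% (log2 0.26 ± 0.06, edgeR adjusted p = 0.0130). Mrps10, which lies in the head of the small subunit, was at 26.9, 31.7 and 25.4 CPM in induced and at 22.6, 20.2 and 23.0 CPM in wildtype retinas. Again the groups did not overlap, and the difference was 26.9% (log2 0.34 ± 0.10, edgeR adjusted p = 0.0363). Mrps28, the homologue of bacterial S1, was at 18.4, 17.0 and 17.4 CPM against 14.1, 15.1 and 13.5 CPM, 23.0% higher (log2 0.30 ± 0.09, edgeR adjusted p = 0.0437). Both comparisons of induced retinas share the same 3 libraries, so the 2 calls of Mrpl49 are not independent.

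**Figure D2:**
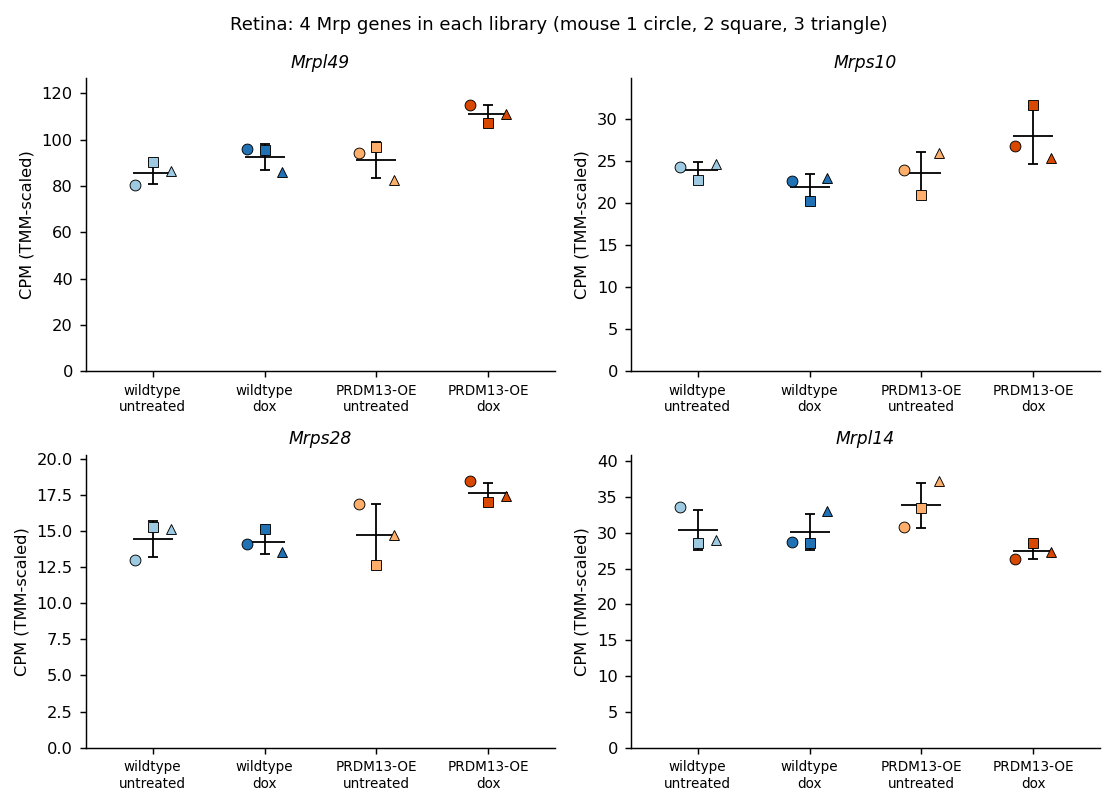
CPM of Mrpl49, Mrps10, Mrps28 and Mrpl14 in each of the 12 retinas by genotype and dox; points are libraries, horizontal lines are means and bars are SD (n = 3). Mrpl49 is at 107 to 115 CPM in the 3 induced retinas and at 80.4 to 97.0 CPM in the other 9, while Mrpl14 is lowest in the induced retinas at 26.3 to 28.5 CPM.

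The median of the 77 genes in this comparison was 0.07 on the log2 scale, beside 0.01 for all genes. Without overlap between groups, 19 genes were higher in the induced retinas and 2 lower, beside 16.4% and 15.4% of all genes. The sum of rod markers was lower in the same libraries, at 57964 to 64697 CPM in induced and 77736 to 80607 CPM in wildtype retinas with dox. The sums of red blood cell markers (0.709 to 1.18 against 31.2 to 77.8 CPM) and endothelial markers (122 to 144 against 282 to 299 CPM) were also lower without overlap. So were those of RPE and pigment markers (649 to 671 against 867 to 919 CPM) and lens markers (4.89 to 30.4 against 119 to 11876 CPM). The part of these lists was not tested. The endothelial and the RPE and pigment sums each rested mostly on 1 gene. The highest gene means were 99.2 against 248.9 CPM in the endothelial list and 479.8 against 653.4 CPM in the RPE and pigment list. With the rod level as a covariate over the 12 retinas, none of the 77 genes was called and 27 genes of 22538 were, while the log2 fold changes of the 3 genes were 0.44 for Mrpl49, 0.07 for Mrps10 and 0.70 for Mrps28. Rod level and induction moved together, so their parts cannot be told apart. Under library size scaling 14 genes were called, all higher, beside 15.5% of all genes. Leaving out single libraries gave 0 to 2 calls. Without induced retina 1 none was called, without induced retinas 2 and 3 only Mrpl49 and only Mrps10 were, and without wildtype retina 1 only Mrpl49 was. Mrpl49 was called with Mrps26 without wildtype retina 2, and with Mrps10 without wildtype retina 3. Mrps28 was not called in any of these 6 fits (adjusted p = 0.0554 to 0.154) or by DESeq2 (adjusted p = 0.0911), nor with no filter (edgeR adjusted p = 0.0515) or with all 12 retinas in 1 fit (edgeR adjusted p = 0.103).

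Without dox, the genotypes were compared to see whether the uninduced cassette altered these genes. In the retina none of the 77 genes was called, beside 0.00484% of all 20668 genes, with 4 higher and 0 lower at an unadjusted p under 0.05 (2.03% and 1.73% of all genes) and 0 by DESeq2. Mrps34 (log2 0.27 ± 0.09), Mrpl12 (log2 0.20 ± 0.08) and Mrpl34 (log2 0.18 ± 0.08) had the smallest p, each with an adjusted p of 0.995 by edgeR. The median was 0.06, and 0.07 without PRDM13-OE mouse 1. The interaction of genotype and dox, which asks whether dox acted differently in the 2 genotypes, called none of the 77 genes in the retina, beside 3.03% of all 22538 genes, with 2 higher and 2 lower at an unadjusted p under 0.05 (7.05% and 7.36% of all genes) and 0 by DESeq2. Its smallest adjusted p were those of Mrpl2 (log2 0.22 ± 0.08, 0.213), Mrps10 (log2 0.36 ± 0.14, 0.227) and Mrps25 (log2 -0.36 ± 0.15, 0.286) by edgeR. Without untreated PRDM13-OE mouse 1, Mrps25 was called (log2 -0.49, edgeR adjusted p = 0.0496).

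In wildtype eye cups the differences with dox were larger than in the retina, but no gene passed. None of the 77 genes was called, as in the table as a whole (0% of 21799 genes), although 34 were lower and 1 higher at an unadjusted p under 0.05, beside 14.3% and 15.6% of all genes. DESeq2 called 26 of them, all lower, beside 19% of all genes. Of the 77 log2 fold changes, 66 were below 0, beside 52.5% of all genes, and 39 genes were lower with no overlap between groups, beside 16.3%. The median of the 77 genes was -0.34 on the log2 scale, while that of all genes was -0.05. Under library size scaling the medians were -0.16 and 0.13.

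Mrpl58, the release factor relative, was at 48.1, 53.2 and 65.7 CPM with dox and at 94.2, 119 and 144 CPM without (log2 -1.12 ± 0.21, edgeR adjusted p = 0.0673). Every treated eye cup was below every untreated one. Mrps21 was at 41.9, 38.5 and 49.0 CPM against 84.1, 73.8 and 107 CPM (log2 -1.07 ± 0.20, same adjusted p). Mrpl14 was at 43.2, 37.5 and 43.1 CPM against 63.8, 65.9 and 76.2 CPM (log2 -0.76 ± 0.15, same adjusted p). Mrps6 was at 27.5, 34.0 and 44.4 CPM against 58.0, 72.8 and 88.0 CPM (log2 -1.07 ± 0.24, same adjusted p), again with no overlap between the groups. In the opposite direction stood Mrpl3, a core protein of the large subunit, with means of 26.3 ± 1.37 and 20.4 ± 0.92 CPM with and without dox (SD, n = 3; log2 0.34 ± 0.14, unadjusted p = 0.0420 by edgeR).

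**Figure D3:**
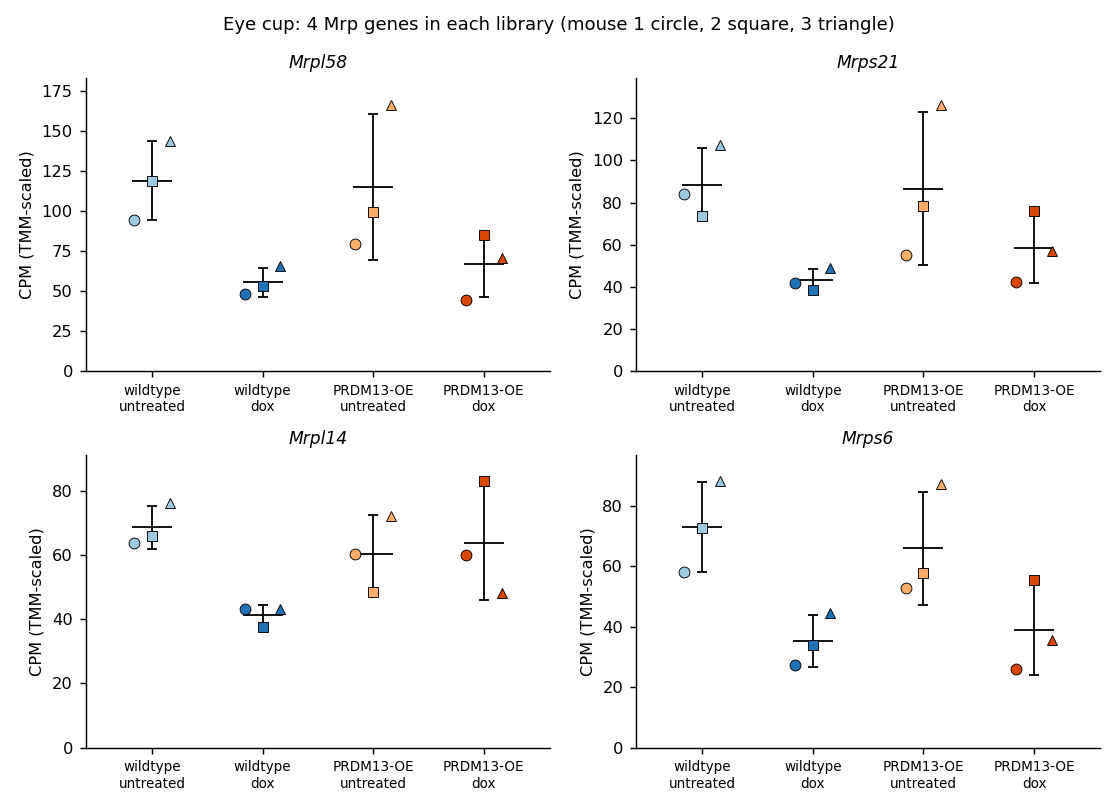
CPM of Mrpl58, Mrps21, Mrpl14 and Mrps6 in each of the 12 eye cups by genotype and dox; points are libraries, horizontal lines are means and bars are SD (n = 3). Wildtype eye cups with dox lie below untreated ones for each gene (48.1 to 65.7 against 94.2 to 144 CPM for Mrpl58), while the PRDM13-OE groups overlap.

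Large and small subunit genes had medians of -0.36 and -0.29 in this comparison. Genes with a bacterial homologue had a median of -0.41 with 4 of 46 above 0, and mitochondria-specific genes a median of -0.20 with 7 of 30 above 0, a difference that was not tested. The composition of the same libraries differed. The 14 rod markers summed to 26736 to 52100 CPM with dox and 3467 to 26343 CPM without, and the 12 RPE and pigment markers to 10550 to 22180 CPM with dox and 29708 to 45737 CPM without, and neither overlapped between the groups. With the rod level as a covariate over the 12 eye cups the median of the 77 genes was -0.26, and with the RPE and pigment level it was -0.11, with 0 of the 77 genes called in either. With the RPE and pigment level the log2 fold changes of Mrpl58, Mrps21 and Mrpl14 were -0.24, -0.25 and -0.29, and with the rod level -0.81, -0.86 and -0.43. The part of composition in the lower levels was not tested beyond these fits. Leaving out wildtype eye cup 3 with dox gave 11 lower genes, beside 6.59% of all genes called, and leaving out untreated wildtype eye cup 1 gave 13, beside 13.5%, with Mrpl58, Mrps21, Mrpl14 and Mrps6 in both sets, while leaving out any of the other 4 gave 0.

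In PRDM13-OE eye cups, the log2 fold changes with dox lay on both sides of 0 and had wide intervals, with 40 of the 77 above 0. None of the 77 genes was called, beside 0.0139% of all 21604 genes, with 1 higher and 0 lower at an unadjusted p under 0.05 (1.1% and 3.04% of all genes) and 0 by DESeq2. RPE and pigment markers (8325 to 22716 CPM with dox and 23244 to 54545 CPM without) and red blood cell markers (12.4 to 14.3 CPM with dox and 558 to 1167 CPM without) did not overlap between these groups, and their part was not tested. The median of the 77 genes was 0.02 on the log2 scale, beside 0.05 for all genes, and the 95% interval stayed within 1.5-fold for 12 genes. Mrpl44, a large subunit protein with an RNase III fold, was at 25.8, 25.8 and 27.5 CPM with dox and at 19.3, 18.4 and 14.3 CPM without (log2 0.60 ± 0.23, edgeR adjusted p = 0.975). Mrps6 (log2 -0.76 ± 0.35) and Mrpl58 (log2 -0.78 ± 0.37) came next at the same adjusted p, and their groups overlapped. Without PRDM13-OE eye cup 2 with dox the log2 fold changes of Mrps6 and Mrpl58 were -1.11 and -1.01, and without untreated PRDM13-OE eye cup 3 they were -0.47 and -0.39. Without untreated PRDM13-OE mouse 1, 0 genes were called and the median was -0.03.

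Between genotypes with dox, 76 of the 77 genes were higher in PRDM13-OE than in wildtype eye cups, beside 54.2% of all genes, yet none was called, beside 0.0184% of all 21758 genes. At an unadjusted p under 0.05, 11 were higher and 0 lower, beside 4.61% and 3.62% of all genes, and DESeq2 called 0. The median was 0.34 on the log2 scale, beside 0.05 for all genes, and 28 genes were higher without overlap, beside 6.71%. Mrpl57, a mitochondria-specific large subunit protein, was at 41.3, 50.5 and 43.0 CPM in PRDM13-OE and at 28.6, 26.0 and 33.3 CPM in wildtype eye cups with dox (log2 0.67 ± 0.19, edgeR adjusted p = 0.597). Mrpl23, which lies at the exit of the peptide tunnel, was at 52.6, 63.9 and 52.1 CPM against 39.5, 33.3 and 39.9 CPM (log2 0.63 ± 0.18, same adjusted p), and Mrps28 at 19.1, 32.1 and 26.4 CPM against 17.1, 15.4 and 18.0 CPM (log2 0.66 ± 0.22, same adjusted p). These comparisons share the wildtype eye cups with dox, so the higher values here and the lower ones with dox above are not independent. Rod markers overlapped between these groups (6088 to 40991 CPM in PRDM13-OE), as did RPE and pigment markers (8325 to 22716 CPM). Red blood cell markers (12.4 to 14.3 against 238 to 559 CPM), endothelial markers (105 to 226 against 250.1 to 264 CPM) and lens markers (14.7 to 424 against 674 to 3269 CPM) were lower in PRDM13-OE eye cups without overlap, and their part was not tested. Without PRDM13-OE eye cup 3, the one with most rod transcripts, Mrpl52, Mrpl14, Mrpl33 and Mrpl23 were called higher (edgeR adjusted p = 0.0277 to 0.0459), beside 10.4% of all genes called in that fit.

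Between untreated eye cups of the 2 genotypes, edgeR called none of the 77 genes, as for all 21588 genes (0%), with 0 at an unadjusted p under 0.05 (0.954% of all genes higher and 0.917% lower) and 0 by DESeq2. The median was -0.05, and -0.01 without PRDM13-OE mouse 1. Mrpl32 (log2 -0.41 ± 0.20), Mrpl19 (log2 -0.39 ± 0.21) and Mrpl15 (log2 0.25 ± 0.19) had the smallest p. The interaction in the eye cups also called none, beside 0% of all 23837 genes, with 8 higher and 0 lower at an unadjusted p under 0.05 (3.16% and 3.24% of all genes) and 0 by DESeq2. Its median was 0.36 and 75 genes were above 0, beside 51.2% of all genes. Mrpl23 (log2 0.82 ± 0.23), Mrpl32 (log2 0.76 ± 0.24) and Mrpl14 (log2 0.84 ± 0.32) had the smallest p, each with an adjusted p of 0.753 by edgeR. Without untreated PRDM13-OE mouse 1, 0 genes were called and the median was 0.38.

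**Figure D4:**
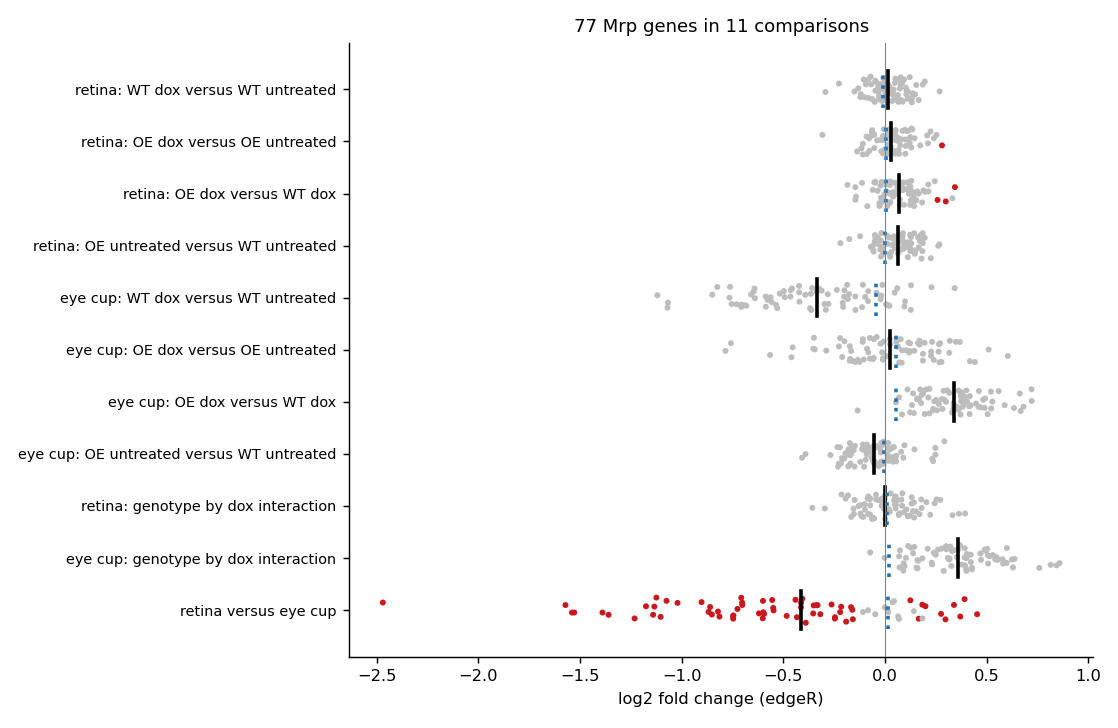
Log2 fold changes of the 77 counted Mrp genes in the 11 comparisons, with genes called by edgeR in red, the others in grey, the median of the 77 genes as a black line and that of all genes tested as a dotted blue line. Retinal comparisons are narrow around 0, eye cup comparisons are wider, with medians of -0.34 for wildtype mice with against without dox, 0.34 for PRDM13-OE against wildtype with dox and 0.36 for the interaction, all of which use the wildtype eye cups with dox, and the tissues differ with a median of -0.41.

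Tissue gave the most calls. Of the 77 genes, 56 were lower and 10 higher in the retina than in the eye cup, 66 in all beside 68.5% of all 26034 genes. Calls in the whole table were even in direction, with 34.2% of all genes higher and 34.2% lower. The median of the 77 genes was -0.41 on the log2 scale, beside 0.01 for all genes. Under library size scaling, 17 were higher and 43 lower, beside 10235 of all 26034 genes higher and 7899 lower (69.7% called), and the medians were -0.23 and 0.19. In untreated wildtype mice alone, 2 were higher and 49 lower, beside 61.5% of all genes called in either direction. Without untreated PRDM13-OE mouse 1, 7 were higher and 56 lower, beside 67.1%.

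The largest difference was that of Mrps6, the homologue of bacterial S6, at 6.21 ± 0.41 FPKM in retinas and 37.1 ± 15.3 FPKM in eye cups (SD, n = 12), or -2.47 ± 0.12 on the log2 scale (edgeR adjusted p = 6.27e-13). Every retina, at 5.69 to 7.18 FPKM, was below every eye cup, at 17.9 to 62.0 FPKM. Mrpl33 was at 0.959 ± 0.0935 and 2.97 ± 0.760 FPKM (log2 -1.57 ± 0.09, adjusted p = 3.8e-12). Mrpl52, a mitochondria-specific protein, was at 13.7 ± 1.54 and 41.6 ± 11.6 FPKM (log2 -1.54 ± 0.10, adjusted p = 4.43e-11). Mrps21 (log2 -1.53 ± 0.11) and Mrpl58 (log2 -1.39 ± 0.11) completed the 5 largest falls. Mrpl36, Mrps15, Mrpl42, Mrpl51, Mrps16, Mrps18a, Mrpl14, Mrps24 and Mrpl23 were the other genes past 1 on the log2 scale, between -1.02 and -1.36, and none was higher in the retina by as much. Beside these 14 genes of 77 lower by more than 1, 24.2% of all genes were lower and 18.4% higher by as much.

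Higher in the retina were Mrpl3 (5.14 ± 0.42 against 3.85 ± 0.75 FPKM, log2 0.45 ± 0.08), Mrps5 of the small subunit (6.201 ± 0.24 against 4.82 ± 0.53 FPKM, log2 0.39 ± 0.06), Mrps22 (log2 0.37 ± 0.10), Mrps31 (log2 0.34 ± 0.08) and Mrpl50 (log2 0.30 ± 0.07), all called by edgeR, with adjusted p from 3.01e-06 to 0.00247. Mrpl49 was also higher in the retina (log2 0.28 ± 0.08, edgeR adjusted p = 0.00704). Over the 12 eye cups, the highest means were those of Mrps21 (100 ± 41.3 FPKM) and Mrpl34 (92.9 ± 15.2 FPKM), whose spreads overlapped, followed by Mrpl14 (65.8 FPKM), Mrpl54 (65.6 FPKM) and Mrpl27 (56.5 FPKM). The mean of Mrps21 was above that of Mrpl34 in untreated eye cups (128 against 108 FPKM in wildtype, 128 against 96.0 FPKM in PRDM13-OE) and below it with dox (59.9 against 74.4 FPKM in wildtype, 83.7 against 93.6 FPKM in PRDM13-OE). The lowest 5 were Mrps30 (2.42 FPKM), Mrpl1 (2.60 FPKM), Mrps22 (2.84 FPKM), Mrps18b (2.90 FPKM) and Mrpl33 (2.97 FPKM). Genes with a bacterial homologue had a median tissue difference of -0.57 (37 of 46 lower and 5 higher) and mitochondria-specific genes one of -0.21 (18 of 30 lower and 5 higher), beside 34.2% of all genes each way, and the difference between the classes was not tested. The coefficient of variation over the 12 eye cups had a median of 18.0%, against 7.49% in the retina, and was largest for Mrpl58 at 44.0%.

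The tissue differences ran in a similar order over the genes as the differences with dox in wildtype eye cups. The tissue difference was taken for this from PRDM13-OE mice alone, so that the 2 measures shared no library. Across the 77 genes, Pearson's r was 0.891 and Spearman's rho 0.893, and across all 21416 genes in both fits they were 0.568 and 0.756. Without untreated PRDM13-OE mouse 1, a setting chosen after seeing the data, they were 0.902 and 0.902 across the 77 genes. Genes are not independent replicates, and no test was made. Mrps6 was at -2.56 by tissue and -1.07 with dox, Mrpl58 at -1.46 and -1.12, and Mrpl3 at 0.37 and 0.34 (log2).

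**Figure D5:**
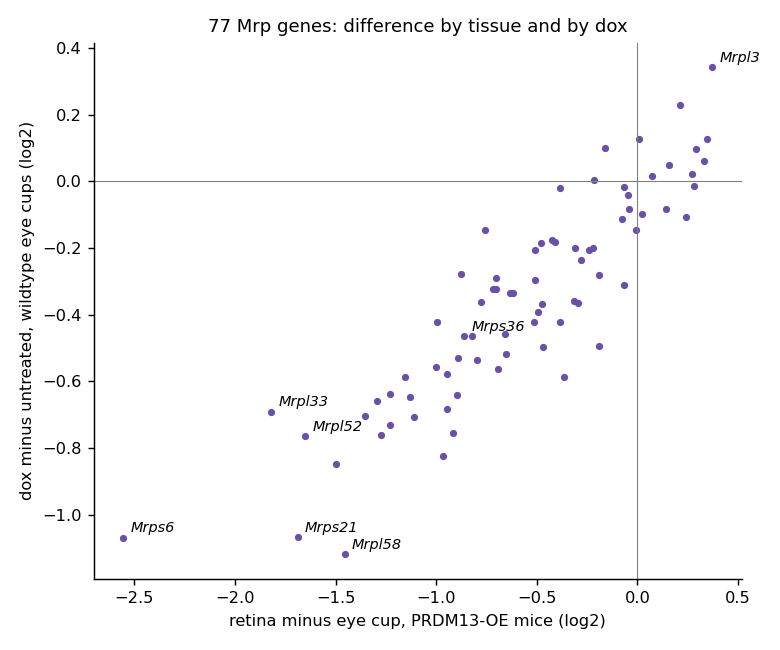
Each point is 1 of 77 Mrp genes, with its log2 difference between retina and eye cup in PRDM13-OE mice on the x axis and its log2 difference between dox and untreated wildtype eye cups on the y axis. The points rise together (r = 0.891), from Mrps6 at -2.56 and -1.07 to Mrpl3 at 0.37 and 0.34.

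Other genes of mitochondrial translation were read beside the ribosomal proteins. The 5 mitochondrial ribosomal proteins with other names (Dap3, Chchd1, Aurkaip1, Ptcd3 and Gadd45gip1), 16 translation factors, 24 assembly factors and 22 aminoacyl-tRNA synthetases and amidotransferase subunits gave 1 call in the 8 comparisons of dox and genotype and their 2 interactions. Ngrn, an assembly factor of the large subunit, was higher in induced than in wildtype retinas with dox (log2 0.23 ± 0.06, edgeR adjusted p = 0.0188), 1 of 24 assembly factors beside 12.5% of all genes called. In wildtype eye cups with dox, where the ribosomal protein genes had a median of -0.34, the medians of these 4 lists were -0.32, 0.06, -0.08 and 0.07. By tissue, beside 34.2% of all genes higher and 34.2% lower, 8 of 16 translation factors were higher in the retina and 3 lower, 9 of 24 assembly factors were higher and 3 lower, 15 of 22 synthetases and amidotransferase subunits were higher and 3 lower, and 2 of the 5 other ribosomal proteins were higher and 3 lower. The difference between these lists and the ribosomal protein genes was not tested.

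The cytosolic ribosomal proteins, which serve the other ribosome of the cell, had medians further from 0 than the mitochondrial ones in wildtype eye cups with dox and between tissues. Their median was -0.63 in wildtype eye cups with dox (0 of 80 called, 66 lower at an unadjusted p under 0.05 beside 14.3% of all genes) and -1.56 between retina and eye cup (78 of 80 lower and none higher, beside 34.2% of all genes each way). In wildtype retinas with dox it was 0.09, with 0 of 79 called and 6 higher at an unadjusted p under 0.05, beside 4.69% of all genes. In induced retinas 2 of 79 were called, both lower, against untreated PRDM13-OE retinas, beside 5% of all genes, and 1 higher and 2 lower against wildtype retinas with dox, beside 12.5%. The retinal interaction gave 1 call of 79, lower, beside 3.03%. Between untreated retinas, 1 of 78 was called, higher, beside 0.00484%, and 20 were higher and 1 lower at an unadjusted p under 0.05, beside 2.03% and 1.73% of all genes. In eye cups with dox, PRDM13-OE against wildtype, the median was 0.78, with 0 of 80 called and 50 higher at an unadjusted p under 0.05, beside 4.61%. The summed level of the cytosolic ribosomal proteins was 29381 to 34287 CPM in untreated and 18879 to 25729 CPM in treated wildtype eye cups. Polyadenylated RNA was sequenced, so the 2 mitochondrial ribosomal RNAs were only partly captured. mt-Rnr2, the RNA of the large subunit, was at 837 to 1126 CPM in retinas and at 982 to 4696 CPM in eye cups. In wildtype eye cups it was at 1392, 1098 and 984 CPM with dox and at 2313, 1455 and 1774 CPM without, and mt-Rnr1, the RNA of the small subunit, was at 502, 396 and 419.7 CPM with dox and at 1043, 705 and 883 CPM without. Neither overlapped between the groups. In PRDM13-OE eye cups the groups overlapped for both RNAs, with the highest values in untreated mouse 3 (4696 CPM of mt-Rnr2 and 2432 CPM of mt-Rnr1). In retinas, mt-Rnr1 was at 242 to 266 CPM with dox and 269.8 to 300.3 CPM without in wildtype mice, and at 246 to 285 CPM with dox and 287 to 351 CPM without in PRDM13-OE mice, without overlap in either, while mt-Rnr2 overlapped in both genotypes. For mt-Rnr1 the PRDM13-OE retinas were barely apart, with 284.76 CPM in induced mouse 3 and 287.2 CPM in untreated mouse 1, whose Gm13394 was within the wildtype range. Of all genes, 7.92% were lower with dox without overlap in wildtype retinas and 16.3% in wildtype eye cups. The differences in the 2 RNAs were not tested.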

How the data were processed

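Reads from poly(A) RNA were mapped to GRCm39 for the authors by Novogene, with HISAT2 and CASAVA named in the submitters' notes. The counting tool, annotation release and library strandedness are not given in the sources used here. The authors deposited raw read counts per gene for 24 libraries, used for every test, and FPKM values computed from count and gene length, used only to compare genes with each other. The authors' own deposited fold changes and p-values, which hold their comparisons, were not used.

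Genes with at least 10 counts over the libraries fitted were tested with edgeR 4.0.16 (TMM, quasi-likelihood, robust off; R 4.3.3), with Benjamini-Hochberg adjustment over all genes tested, and called at an adjusted p under 0.05. The study's cutoff of 1 on the log2 scale was an alternative, since in the main edgeR fits only the tissue comparison had calls past it. Each fit held the groups compared, interactions held the 12 libraries of a tissue, and the tissue comparison held all 24. DESeq2 1.42.0, library size scaling, no filter, filterByExpr, robust fitting, 1 fit per tissue, replicate blocks and leaving out each library were alternatives. Fits with rod or pigment covariates were added after seeing the data. Scripts were tested on simulated data.

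Total counts per library were 15825059 to 24908314, and floors of 3 counts cover counting error only. Libraries of 1 group differed by more than sampling noise, with a chi-square of at least 3.80 per degree of freedom. Within a tissue, mouse numbers did not pair the libraries, with correlations of same-numbered deviations from -0.55 to 0.66 over 36 pairs. Retina and eye cup with 1 number came from 1 mouse, as the labels state (correlation -0.002 to 0.19 over 12 pairs), so the tissue comparison was also paired.

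The rule of membership and all lists were chosen with earlier results of these data known. Subunit and bacterial homology were assigned by textbook knowledge. Genes named in the text were chosen by role, as the most changed or least adjusted p in each comparison, by highest or lowest FPKM, or past 1 on the log2 scale. Mrps26, Mrps18c, Mrpl53 and genes called under alternatives were named after their values were seen. All 78 genes were found in GENCODE vM39 at their listed positions. The rule left out 6 Mrp pseudogenes. Figures used matplotlib 3.10.9.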

Additional observations from a re-analysis of the deposited data

How the results depend on the processing

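The genes refitted under every alternative, up to 5 called in each direction per comparison or else the 3 of smallest adjusted p, kept their direction. In induced against untreated PRDM13-OE retinas, the 1 call (Mrpl49) became 0 with a log2 fold change past 1, 3 under library size scaling (with Mrpl2 and Mrpl3, beside 5.58% of all genes called), 2 with no filter (beside 5.78%) and 2 with robust fitting (beside 5.81%), both with Mrpl14 lower, and 0 to 2 without single libraries (beside 3.02% to 5.34%). In induced against wildtype retinas with dox, the 3 calls became 0 past 1, 14 under library size scaling, all higher (beside 15.5%, 2175 higher and 1007 lower), 0 with the rod covariate (where the median of the 77 genes was -0.04 in place of 0.07), and 0 to 2 without single libraries (beside 7.52% to 11%). In wildtype eye cups with dox, the 0 calls became 26 by DESeq2 (beside 19%), 4 under library size scaling (beside 6.18%, 1143 higher and 205 lower) and 8 with no filter (beside 5.52%, 926 higher and 678 lower), all lower, and 0 to 13 without single libraries (beside 0% to 13.5%). Eye cups of both genotypes with dox gave 0 to 4 calls (beside 0% to 10.4%) and the retinal interaction 0 to 1 (beside 2.03% to 3.06%) without single libraries. The 66 calls by tissue became 14 past 1, all lower (beside 42.7%), and 60 to 65 without single mice (beside 65.6% to 68.4%). The replicate block changed no count by over 1.5-fold, with 59 calls by tissue when the mouse was the replicate block (beside 62.2%) and 2 in induced against wildtype retinas with dox (Mrpl49 and Mrpl54, beside 12.4%), where the calls of Mrps10 and Mrps28 were lost. The cause of these changes was not tested. With dox in wildtype mice, the 95% interval of the fold change stayed within 1.5-fold for 19 of the 77 genes in eye cups and for 76 in retinas.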
